A study of Mus musculus with 24 samples.

Results

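The 10 genes described here encode core proteins of the skeletal muscle triad, the junction at which an electrical signal in the surface membrane releases calcium inside the fibre: Ryr1, Ryr3, Cacna1s, Cacnb1, Cacng1, Stac3, Jph1, Jph2, Trdn and Bin1. They were taken by gene name, with no threshold on any measured value, from tables of 56941 genes, and the set was chosen with earlier results of these data known. All 10 were found once each and all 10 were among the 13315 genes that passed the filter on low counts. The tissue was engineered muscle made from C2C12, a mouse myoblast line that fuses into myotubes, carrying channelrhodopsin-2 (ChR2), a light-gated cation channel, joined to the red fluorescent protein tdTomato. In every group, control included, the cells carried this construct, were seeded on fibrin gel, and were kept for about 2 weeks in differentiation medium containing horse serum and IGF-1. The 4 groups differed only in the daily 60 min light session: none (control), 1 Hz, 4 Hz or 10 Hz, with 6 libraries each and 24 in all. Every group derives from 1 cell line in culture, and the control was not lit, so light itself and the contraction it drives cannot be told apart.

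In skeletal muscle an action potential runs into the fibre along the transverse (T) tubules and is sensed there by the voltage-gated calcium channel Cav1.1. Cav1.1 is coupled physically to the ryanodine receptor in the facing membrane of the sarcoplasmic reticulum, which then opens and lets calcium out to the myofibrils. Light acting on ChR2 enters this route at its first step, by depolarising the membrane. Whether the contractions passed through the triad was not tested here, and the authors report spontaneous twitch in every condition.

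The libraries held between 8052369 and 18159144 estimated counts. The myotube identity of the tissue was carried by its markers: all 14 genes of a myotube list (Acta1, Ckm, Ttn, Neb and others) were tested, and their summed level ran from 11284 to 20135 counts per 1000000 (CPM) over the 24 libraries. Markers of fat cells, endothelium, neurons and macrophages that did not pass the filter had few counts. Summed over all libraries they ran from 1 (Chat) to 3 (Rbfox3) for neurons and 4 (Adipoq) to 47 (Fabp4) for fat cells. For endothelium they ran from 11 (Cdh5) to 31 (Pecam1) and for macrophages from 1 (Adgre1) to 99 (Csf1r). Of those 4 lists only Tubb3 and Cd68 passed the filter. With them included, the neuron list summed to 34.2 to 108 CPM and the macrophage list to 39.6 to 73.6 CPM. The libraries 4 Hz replicates 3 and 4 and 1 Hz replicates 4 and 6 had the lowest rank correlations with the rest, with median Spearman values of 0.974 to 0.979, and their 50 most abundant genes took 19.3% to 22.9% of the counts. Composition also moved with the groups: the 50 most abundant genes took 17.2% to 22.9% at 4 Hz and 14.8% to 16.4% in the control, and ribosomal protein genes 5.70% to 8.07% and 4.71% to 5.44%, ranges that did not overlap. Mitochondrial counts reached 8.90% in 4 Hz replicate 3, beside 1.37% to 2.72% in the control, and the part of these shares in the 4 Hz values below was not tested. Any 2 libraries of a group differed by more than counting noise (chi-square per degree of freedom of at least 4.86), so all 24 were kept as separate replicates. Some low-input samples were prepared by ribosomal depletion in place of poly(A) selection, and which ones is not given in the sources used here, so the part of library type in any value below was not tested.

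Levels per transcript length, in transcripts per 1000000 (TPM), spread the 10 genes widely. Bin1, whose product amphiphysin 2 bends membrane into T-tubules, was the highest in the control at 598 ± 22.9 TPM (SD, n = 6), and Cacng1, the gamma subunit of Cav1.1, followed at 253 ± 15.9. Jph2 (108 ± 6.15), Trdn (104 ± 14.2), Cacnb1 (68.5 ± 4.27) and Cacna1s (45.8 ± 5.86) formed a middle tier. Jph1 (18.6 ± 1.13), Stac3 (18.01 ± 1.83) and Ryr1 (14.4 ± 1.99) lay below them, and Ryr3 was last at 2.35 ± 1.23.

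Neighbours in this order whose control libraries overlapped were Jph2 with Trdn, Jph1 with Stac3, and Stac3 with Ryr1. All other neighbours were separate in every control library. Bin1 and Cacng1 stayed first and second, and Ryr3 last, in all 4 groups. The summed TPM of the 10 genes was 1230.3 ± 56.6 in the control, 1080 ± 116 at 1 Hz, 1106 ± 145 at 4 Hz and 1186 ± 44.5 at 10 Hz, ranges that overlapped, and Bin1 made up 48.1% to 49.4% of that sum in every group.

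**Figure D1:**
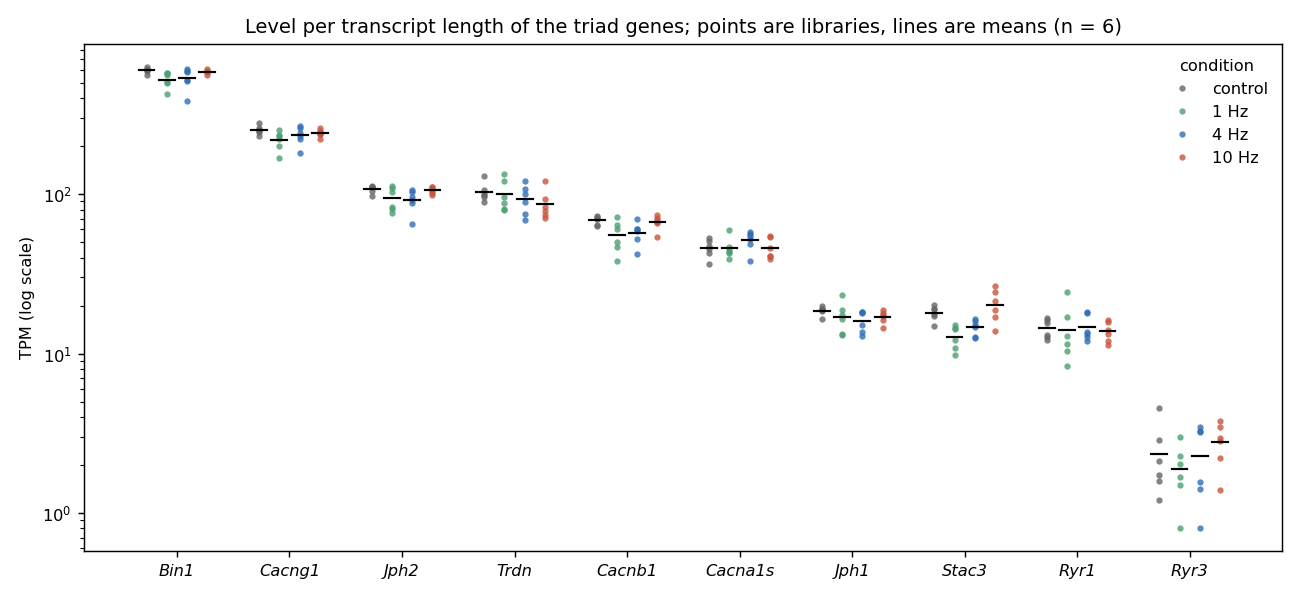
TPM of each triad gene (log axis) in the 24 libraries, ordered by control mean, with conditions side by side and a black line at each mean. Bin1 and Cacng1 lie above the other genes and Ryr3 below them in every condition.

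A deposited estimated count divided by its TPM is proportional to the transcript length that the quantification assigned to a gene. It was placed on a base scale with 158 genes of 1 annotated transcript, for which implied over annotated length ran from 0.73 to 1.05 (5th to 95th percentile). Ryr1 came out at 15698 bases beside 15358 for its canonical transcript, Jph1 at 4972 beside 4822 and Jph2 at 4318 beside 4262, all near the full-length model.

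Shorter than the canonical transcript on average were Ryr3 (5070 bases beside 15458), Cacna1s (4285 beside 6345), Cacnb1 (2064 beside 3424) and Stac3 (976 beside 1846). Cacng1 was at 1131 beside 1323. Trdn came out at 1521 bases beside a canonical transcript of 11114, and Bin1 at 1720 beside 5525. Both genes are annotated with many isoforms, 52 for Trdn and 98 for Bin1, and in both the assigned length was steady, with a range over libraries of 1.17-fold and 1.03-fold. Ryr3, Cacna1s and Stac3 were less steady: their assigned length varied by 5.01-fold, 2.43-fold and 1.65-fold. Over 11003 genes the median was 1.17-fold and the 90th percentile 1.75-fold, above the value of Stac3. Differences between libraries in the TPM of these 3 genes therefore depend in part on how reads were shared among transcripts, which their gene-level counts do not. TPM levels of all 10 genes rest on the assigned length, which for Trdn and Bin1 was far below the canonical transcript.

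For changes between conditions the counts were scaled by the trimmed mean of M values (TMM) and tested with edgeR's quasi-likelihood test, with Benjamini-Hochberg adjustment over 13315 genes and an adjusted p under 0.05 as the call. Against the control, 0 of 10 triad genes passed at 1 Hz, where 37.3% of all tested genes did, and 0 of 10 at 4 Hz, where 51.4% did. By direction, 19.2% of all genes were higher and 18.1% lower at 1 Hz, and 27.5% higher and 23.9% lower at 4 Hz. At 10 Hz 0 of 10 passed, with 0.0376% (5 genes) called among all, 0.015% higher and 0.0225% lower. At an unadjusted p under 0.05 the members numbered 0 at 1 Hz, 2 at 4 Hz (Ryr1 and Bin1) and 0 at 10 Hz, where 6241, 7620 and 1074 of the 13315 genes did. DESeq2 also called 0 of 10 at each frequency. The 3 comparisons share the same 6 control libraries.

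For 1 Hz the 10 genes had a median log2 fold change of 0.02, beside 0.04 over all tested genes. For 4 Hz these medians were 0.12 and 0.06, and for 10 Hz they were -0.04 and 0.01. Signs were positive for 6, 9 and 1 of the 10 in that order. No member had its 6 stimulated libraries clear of the 6 controls, which 14.1%, 27.6% and 1.64% of all tested genes had. The median absolute change of all genes was 0.24 at 1 Hz and 0.31 at 4 Hz, and the plot of fold changes by comparison sets the members against that spread.

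**Figure D2:**
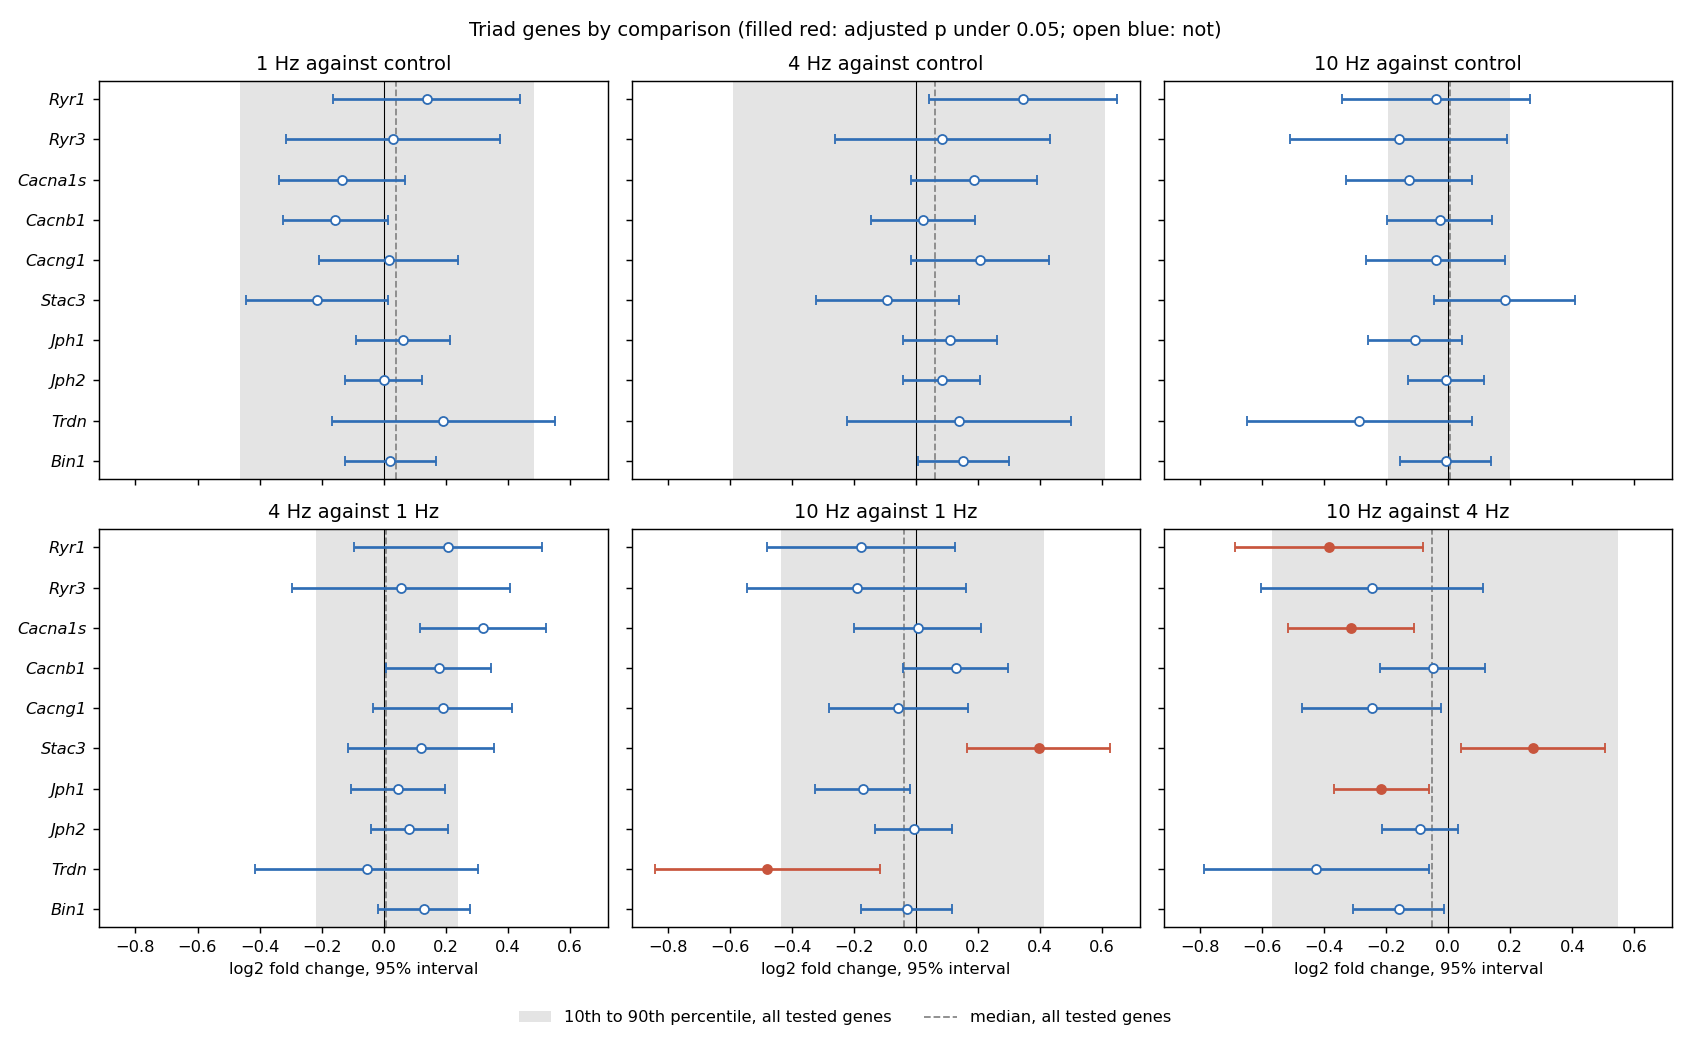
Log2 fold change of each triad gene with its 95% interval in the 6 comparisons. The grey band spans the 10th to 90th percentile of the 13315 tested genes and the dashed line is their median. Filled red points mark the 6 member calls, 2 in 10 Hz against 1 Hz and 4 in 10 Hz against 4 Hz.

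Differences between stimulation frequencies did reach members. Between 10 Hz and 4 Hz, 4 of 10 passed where 46.3% of all tested genes did: Ryr1, Cacna1s and Jph1 were lower at 10 Hz, as were 24.4% of all tested genes, and Stac3 was higher, as were 21.9%. Between 10 Hz and 1 Hz, 2 of 10 passed where 27.9% of genes did, with Stac3 higher, as were 14.8%, and Trdn lower, as were 13.1%. Between 4 Hz and 1 Hz, 0 of 10 passed, and 0% of all tested genes (0 genes) did under edgeR, with 1465 genes and 2 members at an unadjusted p under 0.05 and 0.166% of genes called by DESeq2. These shares of members were close to or below the background. No member had groups that did not overlap in these comparisons, which 18.9% of all genes had for 10 Hz against 4 Hz, 7.7% for 10 Hz against 1 Hz and 0.376% for 4 Hz against 1 Hz. No member passed the study's added threshold of an absolute log2 fold change over 0.5 in any comparison, which 14.9%, 25.1%, 0.0376%, 0%, 10.8% and 21.2% of genes did in the order of the plotted panels.

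The TPM scale moved every comparison that involved 1 Hz or 4 Hz against control or 10 Hz. The median of all genes was -0.21 on log2(TPM + 1) at 4 Hz against the control, beside 0.06 on scaled counts, and it was -0.14 beside 0.04 at 1 Hz. On TPM 2 of 10 members were positive at 4 Hz and 1 of 10 at 1 Hz, and 7 of the 10 changed sign in each. Taken relative to the median of all genes on each scale, 9 of 10 members kept their side at 1 Hz and 8 of 10 at 4 Hz, at 10 Hz and in 10 Hz against 4 Hz, and 7 of 10 in 10 Hz against 1 Hz. Directions below are those of the scaled counts.

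**Figure D3:**
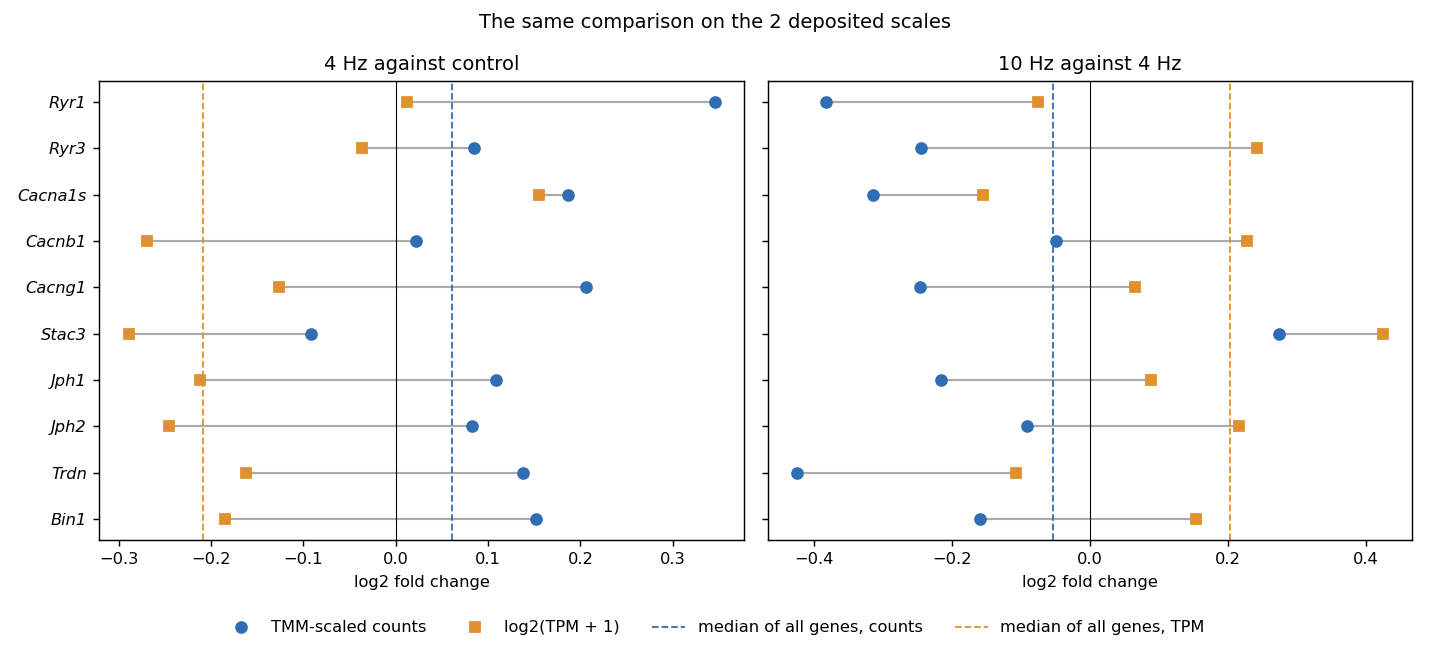
Log2 fold change of each triad gene on TMM-scaled counts (blue circles) and on log2(TPM + 1) (orange squares) for 4 Hz against control and 10 Hz against 4 Hz, with dashed lines at the median of all genes on each scale. At 4 Hz the median moves from 0.06 to -0.21 and the members move with it, except Cacna1s at 0.19 and 0.16.

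For 3 of the genes that the calls between frequencies concern, the 250 bases before the canonical start in GRCm39 (GENCODE M39) are printed. They lie just upstream of the canonical transcript, with E-boxes (CANNTG on either strand, the core bound by myogenic bHLH factors) in capitals. Ryr1 is left out because its window overlaps an exon of another of its own transcripts. The windows are Cacna1s chr1:135980009-135980258 (plus strand), Stac3 chr10:127337292-127337541 (plus strand) and Trdn chr10:32956300-32956549 (plus strand), each given 5′ to 3′ along its own gene.
Cacna1s: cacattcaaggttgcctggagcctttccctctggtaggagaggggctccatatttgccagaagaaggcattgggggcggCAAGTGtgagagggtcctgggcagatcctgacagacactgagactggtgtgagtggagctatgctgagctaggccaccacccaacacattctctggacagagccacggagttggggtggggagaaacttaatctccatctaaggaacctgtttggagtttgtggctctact
Stac3: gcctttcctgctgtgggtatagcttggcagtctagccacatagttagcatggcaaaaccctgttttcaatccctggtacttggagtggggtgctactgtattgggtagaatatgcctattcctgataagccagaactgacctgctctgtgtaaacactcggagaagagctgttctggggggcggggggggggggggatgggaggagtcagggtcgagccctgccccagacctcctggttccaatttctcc
Trdn: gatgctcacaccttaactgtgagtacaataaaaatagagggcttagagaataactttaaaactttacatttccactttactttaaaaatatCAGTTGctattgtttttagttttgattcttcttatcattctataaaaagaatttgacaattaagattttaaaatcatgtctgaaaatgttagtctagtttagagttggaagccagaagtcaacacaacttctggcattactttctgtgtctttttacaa

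E-boxes began 171 bases before the start in Cacna1s and 159 in Trdn, while the Stac3 window held none. The Jph1 window, not printed, held 2, at 169 and 9 bases. Over all 10 members 6 windows held an E-box, beside 64.8% of 21770 windows of protein-coding genes of the same 250 bases. The palindrome CAGCTG, itself an E-box, was in 0 of 10 against 11.9%. A MEF2 site was in 0 of 10 against 2.79%, the MCAT motif CATTCCT in 0 of 10 against 4.44% and an SRF CArG box in 0 of 10 against 1.40%, all searched on both strands. Base composition differed, from 28.8% G and C in Trdn to 54.4% in Cacna1s and 55.2% in Stac3.

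Ryr1 (ENSMUSG00000030592, chr7:28702769-28824604, minus strand, 106 exons in its canonical transcript) encodes the calcium release channel of skeletal muscle. Its level was 117 to 159 CPM in the control libraries (median 141), 115 to 243 at 1 Hz (median 144), 147 to 222 at 4 Hz (median 173) and 111 to 150.1 at 10 Hz (median 138). The 4 Hz libraries lay in the upper part of the range, 3 of 6 above every control, while those at 10 Hz overlapped the control. Its log2 fold change at 4 Hz was 0.35 ± 0.15 (SE), with a 95% interval of 0.04 to 0.65 and an edgeR adjusted p of 0.052.

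That value passed when 1 of 3 libraries was left out: without control replicate 2, control replicate 6 or 4 Hz replicate 6 the edgeR adjusted p was 0.0489, 0.0435 and 0.0338. The same 4 Hz change was 0.01 on log2(TPM + 1), with a limma adjusted p of 0.962. Ryr1 was lower at 10 Hz than at 4 Hz by a log2 of -0.38 ± 0.15 (edgeR adjusted p = 0.0358), with 4 of 6 libraries below every 4 Hz library. That call was lost without 4 Hz replicates 1, 2 or 3 or 10 Hz replicates 1, 2, 3, 5 or 6, one at a time, at edgeR adjusted p values of 0.0554 to 0.114 with differences of -0.31 to -0.39. The difference on log2(TPM + 1) was -0.07 with a limma adjusted p of 0.765. Exons of Ryr1 overlap those of 5 annotated genes of the opposite strand. Such exon overlaps also occur for Trdn (3), Ryr3 and Cacna1s (2 each) and Cacnb1, Jph1 and Bin1 (1 each). The authors name a directional library kit, and whether counting used strand is not given in the sources used here.

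Ryr3 (ENSMUSG00000057378, chr2:112461699-113047441, minus strand) encodes the release channel found beside Ryr1 in developing muscle. It was the least expressed member, at 5.11 to 9.30 CPM in the control, 5.12 to 8.29 at 1 Hz, 5.87 to 9.78 at 4 Hz and 3.80 to 7.62 at 10 Hz, ranges that overlapped throughout. Its 95% intervals against the control were -0.31 to 0.37, -0.26 to 0.43 and -0.51 to 0.19 on the log2 scale, so changes within those bounds remain compatible with the data. The Ryr3 to Ryr1 ratio in TPM was 0.174 ± 0.105 in the control and 0.211 ± 0.0721 at 10 Hz, and did not pass at any frequency (exact permutation test, adjusted p = 0.654 to 0.848 over 18 ratio tests). The third family member, Ryr2 of the heart, had 17 counts in all 24 libraries together and was not tested.

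Cacna1s (ENSMUSG00000026407, chr1:135980259-136047560, plus strand, 44 exons in its canonical transcript) encodes the pore and voltage sensor of Cav1.1. It lay between 114 and 169 CPM in the control (median 135), 95.9 and 146 at 1 Hz (median 125), 138 and 179 at 4 Hz (median 152), and 109 and 140.2 at 10 Hz (median 126). The 4 Hz libraries lay high and those at 1 and 10 Hz low, and 5 of the 6 libraries at 10 Hz were below every 4 Hz library. The difference of 10 Hz from 4 Hz was a log2 of -0.31 ± 0.10 (edgeR adjusted p = 0.0118), and it passed with each library left out in turn.

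Against the control Cacna1s did not pass, at -0.13, 0.19 and -0.13 for 1, 4 and 10 Hz with edgeR adjusted p values of 0.297, 0.116 and 0.841. Without control replicate 6, its highest control at 169 CPM, the 4 Hz value was 0.26 with an edgeR adjusted p of 0.0318. On log2(TPM + 1) the difference of 10 Hz from 4 Hz was -0.16 with a limma adjusted p of 0.313. The 4 Hz against 1 Hz difference was the largest of any member in that comparison at 0.32 ± 0.10, with an edgeR adjusted p of 0.322.

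Cacnb1 (ENSMUSG00000020882, chr11:97892204-97913860, minus strand), the beta subunit that brings Cav1.1 to the membrane, stayed within a narrow band. It averaged 88.8 ± 7.23 CPM in the control, 79.7 ± 10.6 at 1 Hz, 90.2 ± 8.37 at 4 Hz and 87.1 ± 6.05 at 10 Hz. Its lowest change was -0.16 ± 0.08 at 1 Hz (edgeR adjusted p = 0.137), which was -0.21 with an edgeR adjusted p of 0.0412 without 1 Hz replicate 2. Its 1 Hz change on log2(TPM + 1) was -0.34 with a limma adjusted p of 0.0499.

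Cacng1 (ENSMUSG00000020722, chr11:107591493-107607408, minus strand), the gamma subunit, ranged from 166 to 204 CPM in the control (median 173), 131 to 251 at 1 Hz (median 173), 185 to 246 at 4 Hz (median 199) and 148 to 198 at 10 Hz (median 167). The 1 Hz libraries were the most scattered, with a coefficient of variation of 23.2% against 7.92% in the control. The 4 Hz change of 0.21 ± 0.11 had an edgeR adjusted p of 0.115, and the difference of 10 Hz from 4 Hz, -0.25 ± 0.11, one of 0.0652.

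Stac3 (ENSMUSG00000040287, chr10:127337542-127344696, plus strand), the adaptor that Cav1.1 needs to reach and work at the triad, was the one member higher at 10 Hz than at 4 Hz on scaled counts; on log2(TPM + 1) 7 of 10 had that sign. Its levels were 9.24 to 13.1 CPM in the control (median 10.9), 8.29 to 10.1 at 1 Hz (median 9.72), 8.82 to 11.2 at 4 Hz (median 10.5) and 9.99 to 16.8 at 10 Hz (median 11.8). The 10 Hz libraries lay high and the 1 Hz libraries low, with 5 of 6 at 10 Hz above every 1 Hz library and 5 of 6 above every 4 Hz library. Stac3 was higher at 10 Hz than at 1 Hz by a log2 of 0.40 ± 0.11 (1.31-fold, edgeR adjusted p = 0.0111).

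The 10 Hz against 1 Hz call for Stac3 held with each library left out in turn and on log2(TPM + 1), where the difference was 0.61 with a limma adjusted p of 0.00325. The 10 Hz against 4 Hz difference of 0.27 ± 0.11 (edgeR adjusted p = 0.0494) held on log2(TPM + 1) at 0.43 with a limma adjusted p of 0.0143. It was lost without 4 Hz replicates 1, 2 or 6 or 10 Hz replicates 3 or 4, at edgeR adjusted p values of 0.053 to 0.128, and with upper-quartile factors (0.104), no filter (0.0669) or 2 groups in the fit (0.0514), with differences of 0.19 to 0.31. Against the control Stac3 did not pass, at -0.21, -0.09 and 0.18 for 1, 4 and 10 Hz. On log2(TPM + 1) the 1 Hz value was -0.47 with a limma adjusted p of 0.0114, and its assigned transcript length varied by 1.65-fold between libraries.

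**Figure D4:**
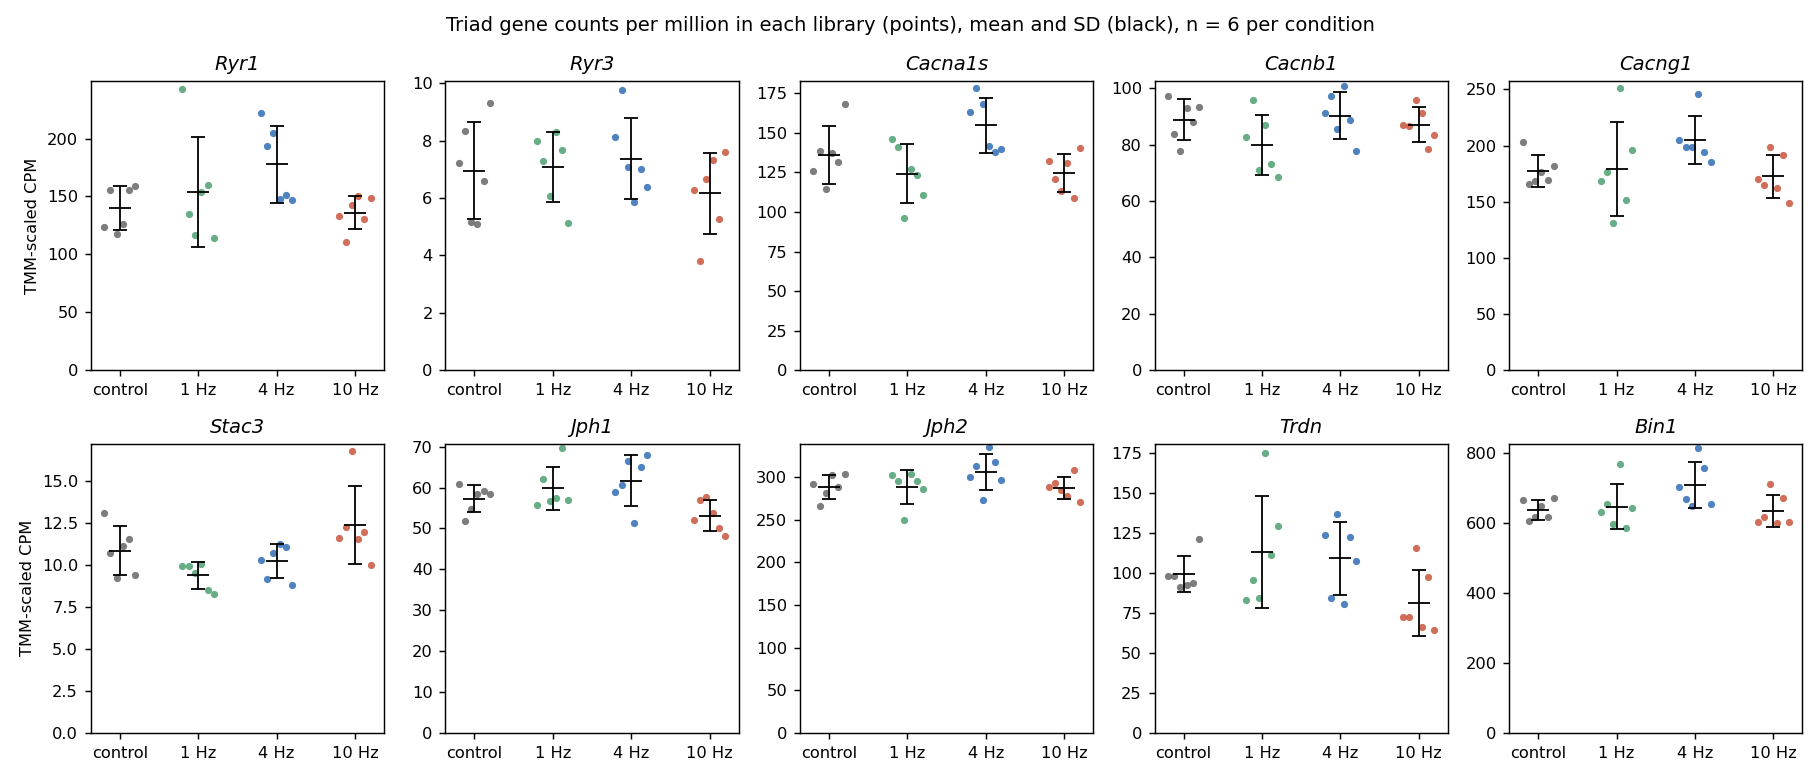
TMM-scaled CPM of each triad gene in every library, by condition, with the mean and SD of 6 libraries in black and each axis starting at 0. Ryr1, Cacna1s, Jph1 and Trdn are lower at 10 Hz than at 4 Hz in their means, Stac3 is higher, and Jph2 stays between 249.6 and 335 CPM in all 24 libraries.

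The junctophilins tie the T-tubule to the sarcoplasmic reticulum across the junction. Jph1 (ENSMUSG00000042686, chr1:17012318-17168113, minus strand) ran from 51.9 to 60.9 CPM in the control (median 58.4), 55.7 to 69.7 at 1 Hz (median 57.2), 51.3 to 67.9 at 4 Hz (median 62.9) and 48.3 to 57.7 at 10 Hz (median 52.9). The 10 Hz libraries lay low and overlapped all other groups. Jph1 was lower at 10 Hz than at 4 Hz by a log2 of -0.22 ± 0.07 (edgeR adjusted p = 0.0197), and the call was lost without 4 Hz replicates 3, 5 or 6 or 10 Hz replicates 1, 5 or 6, at edgeR adjusted p values of 0.0504 to 0.0904. The sign turned on log2(TPM + 1), to 0.09 with a limma adjusted p of 0.598, which lay below the median of all genes at 0.20.

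Jph2 (ENSMUSG00000017817, chr2:163178162-163239920, minus strand) had the narrowest intervals of the 10 genes. Its means were 289 ± 14.0, 288 ± 20.0, 306 ± 21.2 and 287 ± 13.2 CPM for control, 1, 4 and 10 Hz. The 95% interval of its log2 change was -0.12 to 0.12 at 1 Hz, -0.04 to 0.21 at 4 Hz and -0.13 to 0.12 at 10 Hz. The Jph2 to Jph1 ratio in TPM was 5.78 ± 0.204 in the control and 6.21 ± 0.4995 at 10 Hz, a log2 difference of 0.10 that did not pass (exact permutation test, adjusted p = 0.167).

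Trdn (ENSMUSG00000019787, chr10:32956550-33356376, plus strand) encodes triadin, which links the ryanodine receptor to the calcium store protein calsequestrin. It was at 91.3 to 121 CPM in the control (median 95.8), 83.0 to 175 at 1 Hz (median 103), 80.5 to 137 at 4 Hz (median 115) and 64.1 to 116 at 10 Hz (median 72.3). Of the 6 libraries at 10 Hz, 4 lay below every library of each other group, and the 1 Hz libraries were the most scattered, at a coefficient of variation of 31.0%. Trdn was lower at 10 Hz than at 1 Hz by a log2 of -0.48 ± 0.18 (edgeR adjusted p = 0.0441).

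The call was lost without 1 Hz replicates 4, 5 or 6 or 10 Hz replicates 1, 2, 4 or 6 (edgeR adjusted p = 0.0511 to 0.183). The difference was -0.30 without 1 Hz replicate 4, -0.42 to -0.48 without each of the other 6, and -0.21 when the 4 least correlated libraries were left out. Measured on log2(TPM + 1) it was -0.20 with a limma adjusted p of 0.385. Against 4 Hz the difference was -0.42 ± 0.18 (edgeR adjusted p = 0.0511). It passed under DESeq2 (adjusted p = 0.0413), upper-quartile factors (0.047), a strict filter (0.0449), without the 4 least correlated libraries (0.0373), and without 4 Hz replicates 2 or 4 or 10 Hz replicates 3 or 5 (0.014 to 0.0434). Set against the control it was -0.29 ± 0.18, with a 95% interval of -0.65 to 0.08 and an edgeR adjusted p of 0.734.

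Bin1 (ENSMUSG00000024381, chromosome 18, plus strand) was the most abundant member on both scales. Its ranges were 604 to 669 CPM in the control (median 632), 585 to 766 at 1 Hz (median 637), 648 to 814 at 4 Hz (median 685) and 599 to 709 at 10 Hz (median 609). The 4 Hz libraries lay high, 3 of 6 above every control. The 4 Hz change was 0.15 ± 0.07 (edgeR adjusted p = 0.0767), and the difference of 10 Hz from 4 Hz was -0.16 ± 0.07 (edgeR adjusted p = 0.0685). Its relatives Amph and Bin2 had 1 and 2 counts over all libraries.

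Ratios between subunits were compared within each library, which removes any scaling between libraries. The Cacnb1 to Cacna1s ratio in TPM lay between 1.36 and 1.74 in the control (median 1.47), 0.790 and 1.54 at 1 Hz (median 1.31), 1.05 and 1.33 at 4 Hz (median 1.07) and 0.978 and 1.82 at 10 Hz (median 1.53). All 6 libraries at 4 Hz lay below every control. The log2 difference at 4 Hz was -0.43, with an exact permutation p of 0.0021645, the smallest that 6 against 6 can give, and an adjusted p of 0.039 over 18 ratio tests.

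With estimated counts in place of TPM the same ratio differed by -0.17 (exact permutation test, adjusted p = 0.37), and without control replicates 1, 2, 3 or 4 the adjusted p of the exact test was 0.0584 to 0.0779 with differences of -0.39 to -0.44. With 5 against 6 libraries the smallest exact p is 0.00433, which alone among 18 tests adjusts to 0.0779, so these losses say nothing of the size of the difference. On a relative scale the transcript length assigned to Cacna1s averaged 1.15 in the control, 0.931 at 1 Hz, 0.947 at 4 Hz and 1.07 at 10 Hz. Cacna1s has 31 annotated isoforms, and the part of isoform assignment in the ratio was not tested. Cacng1 to Cacna1s fell short at 4 Hz (log2 difference -0.29, exact permutation test, adjusted p = 0.0519), as did Stac3 to Cacna1s (-0.46, exact permutation test, adjusted p = 0.0519). The remaining 15 of the 18 tests gave adjusted p values of 0.107 to 0.848 in the exact permutation test, those of Cacna1s to Ryr1 among them.

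**Figure D5:**
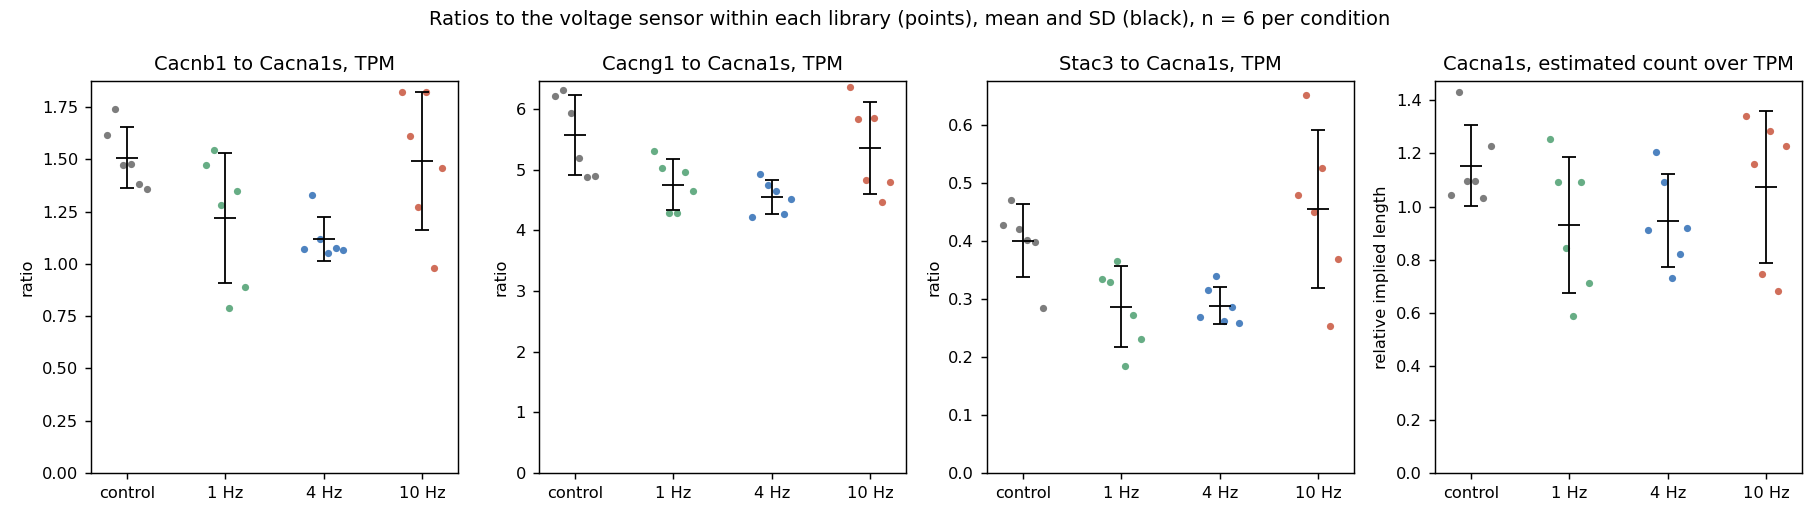
TPM ratios of Cacnb1, Cacng1 and Stac3 to Cacna1s in each library by condition, and, at right, the relative transcript length assigned to Cacna1s (estimated count over TPM), with mean and SD of 6 libraries. All 6 Cacnb1 to Cacna1s ratios at 4 Hz (1.05 to 1.33) are below the lowest control (1.36).

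Over the 24 libraries the members did not move as 1 block. Across the 45 pairs, Pearson's r of log2 CPM as deviations from the condition mean had a median of 0.096 and ran from -0.247 to 0.843, with 11 pairs over 0.5. One set was Ryr1 with Cacna1s (r = 0.707, Spearman's rho 0.728, r without the 2 farthest libraries 0.672) and Ryr1 with Ryr3 (0.691, 0.749 and 0.735). Another was Cacng1 with Bin1 (0.843, 0.80 and 0.804). These are descriptions over 24 libraries that share their preparation, depth and scaling.

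Ryr1, Ryr3 and Cacna1s followed the median of 341 genes with canonical transcripts over 10000 bases, with within-condition r of 0.58, 0.49 and 0.53 over the 24 libraries. Cacng1 and Bin1 ran against it, at -0.75 and -0.72, and Trdn was at -0.54. Between conditions the median log2 change of the long genes was -0.12 at 4 Hz against control, with 35 called higher and 101 lower. At 10 Hz against 4 Hz it was 0.14, with 95 called higher and 33 lower. Ryr1 was at 0.35 and -0.38 in these 2 comparisons. The part of transcript length or RNA integrity in the correlations or in the differences of the triad genes was not tested.

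The genes most like the mean of the 10 members over the 24 libraries, by Pearson's r, were H19 (0.91), Zfp651 (0.89), Coro6 (0.89), Pfkm (0.88) and Pdk2 (0.88). Among those most like Ryr1 were Ttn (0.92) and Neb (0.88), both giant muscle transcripts. Within conditions the same values were 0.819 to 0.876 for the first 5 and 0.915 and 0.955 for Ttn and Neb.

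The other triad and T-tubule genes of a list, 24 of 24 tested, gave calls against the control and whether they differ from the 10 members was not tested. At 1 Hz 5 were higher and 1 lower (25.0%, beside 37.3% of all genes, 19.2% higher and 18.1% lower). At 4 Hz 11 were higher and 2 lower (54.2%, beside 51.4% of all genes, 27.5% higher and 23.9% lower), and at 10 Hz 0 of 24 passed. On log2(TPM + 1) the split was 0 higher and 4 lower at 1 Hz, and 1 higher and 4 lower at 4 Hz, so the direction of the list rested on the scale.

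Asph, whose locus encodes the triad protein junctin among others, was higher than the control at 1 Hz (0.27 ± 0.06, edgeR adjusted p = 0.00207, 6 of 6 libraries above every control) and at 4 Hz (0.37 ± 0.06, edgeR adjusted p = 4.8e-05, 6 of 6), values that were -0.03 and 0.10 on log2(TPM + 1). S100a1, a calcium-binding modulator of the ryanodine receptor, was higher at 4 Hz (0.69 ± 0.15, edgeR adjusted p = 5.9e-04, 6 of 6 above). Calm2, a calmodulin gene, was higher at 1 Hz (0.27 ± 0.07, edgeR adjusted p = 0.00376), a value that was 0.02 on log2(TPM + 1) with a limma adjusted p of 0.868.

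Ank1, whose small product anchors the sarcoplasmic reticulum to the sarcomere, fell. Its log2 difference was -0.37 ± 0.10 at 1 Hz and -0.35 ± 0.10 at 4 Hz (edgeR adjusted p = 0.00526 and 0.00488), with 6 of 6 libraries below every control at 4 Hz.

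At 10 Hz against 4 Hz, 13 of these 24 were lower and 1 higher (58.3%, beside 46.3% of all genes, 24.4% lower and 21.9% higher). At 10 Hz against 1 Hz 8 were lower and 0 higher (33.3%, beside 27.9% of all genes, 13.1% lower and 14.8% higher). On log2(TPM + 1) the first split was 4 lower and 3 higher and the second 1 lower and 1 higher. Casq1, the calsequestrin of fast fibres that triadin holds at the junction, was chosen after its values were seen, as the lowest log2 difference of the list at 10 Hz against 4 Hz. It was 146 CPM at 10 Hz and 256 at 4 Hz, a log2 difference of -0.81 ± 0.16 (edgeR adjusted p = 3.9e-04). All 6 of 6 libraries lay below every 4 Hz library, where 18.9% of all genes had groups that did not overlap. No alternative run is reported for Casq1.

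Of 16 paralogs listed as mostly serving other tissues, 7 passed the filter, and the 16 summed to 879 to 1305 CPM over the libraries. Casq2, a relative of Casq1 and not of any of the 10 members, made up most of that. Stac2, a relative of Stac3, was at 209.8 CPM in the control with no call at any frequency. The other 9, among them Ryr2, Cacna1c, Cacna1d, Jph3 and Jph4, had 1 to 200 counts over all 24 libraries. At 4 Hz 3 of 7 passed, beside 51.4% of all genes: Casq2 (0.27 ± 0.09, edgeR adjusted p = 0.0157, 724 CPM in the control and 871 at 4 Hz) and Cacnb3 (0.23 ± 0.08, edgeR adjusted p = 0.0277) were higher and Stac, at 1.95 CPM in the control and 0.917 at 4 Hz, was lower (-1.06 ± 0.36, edgeR adjusted p = 0.017). The Casq2 call was lost without control replicates 3 or 5 or 4 Hz replicate 3 (edgeR adjusted p = 0.0542 to 0.0721), and the Cacnb3 call without control replicates 2, 3 or 5 or 4 Hz replicates 2, 4 or 5 (0.0512 to 0.184). Without the 4 least correlated libraries Stac was at -0.93 (edgeR adjusted p = 0.064). Values of Casq2 and Cacnb3 on log2(TPM + 1) were -0.04 and -0.11. At 1 and 10 Hz against the control 0 of these 7 passed, beside 37.3% and 0.0376% of all genes.

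Of the 14 myotube markers, 4 were higher at 4 Hz against the control (28.6%, beside 27.5% of all genes) and 8 lower at 10 Hz against 4 Hz (57.1%, beside 24.4%), with Tnni2 at 0.57 ± 0.17 and Mylpf at 0.57 ± 0.17 at 4 Hz (edgeR adjusted p = 0.00689 and 0.00749). Their summed level was 13027 to 16553 CPM in the control, 11284 to 20135 at 1 Hz, 15608 to 19121 at 4 Hz and 12434 to 15433 at 10 Hz. In bulk tissue fewer myotubes and less RNA per myotube cannot be told apart, and the part of myotube content in the values of the triad genes was not tested. The within-condition r of a member with the mean of these markers ran from -0.13 for Jph1 to 0.84 for Cacng1 over the 24 libraries. Markers of myoblasts and satellite cells summed to 295 to 342 CPM in the control, 196 to 248 at 1 Hz, 186 to 227 at 4 Hz and 305 to 316 at 10 Hz, with Myod1 and Pax7 lower and Myf5 and Cd34 higher at both 1 and 4 Hz. Fibroblast-like markers summed to 815 to 1279, 796 to 1227, 892 to 1254 and 979.8 to 1379 CPM in the same order, ranges that overlapped, while Col1a1 was lower at 1 and 4 Hz (-0.70 and -0.71) and Dcn (0.39 and 0.43) and Pdgfra (0.28 and 0.36) were higher. Of 6 dividing-cell markers Cdk1 was higher at 1 and 4 Hz (0.62 and 0.51), and Mki67 (-1.15) and Ccnb1 (-1.06) were lower at 4 Hz. Tubb3, the tested gene of the neuron list, was lower at both (-0.82 and -0.81). Every group derives from 1 cell line, and the part of these marker changes in the values of the triad genes was not tested.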

How the data were processed

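RNA was measured by 50-base paired-end sequencing of whole tissue. The deposited estimated counts and TPM came per gene from Salmon in nf-core/rnaseq, as the authors state, and the submitters' processing notes also name STAR, BWA 0.7.12-r1039 and bedtools 2.25.0 and the builds GRCm39, mm10 and hg19. Estimated counts (19% of those above 0 not whole) were rounded, filtered (filterByExpr, minimum count 10) and tested with edgeR 4.0.16 in 1 quasi-likelihood fit of 24 libraries, and TPM, already normalized by the authors for length and depth, served levels, ratios (0.1 added) and limma 3.58.1. DESeq2 1.42.0 was an alternative. The common biological coefficient of variation was 14.78%, and p-values measure the spread between the 6 libraries of each condition. Positions and windows came from GRCm39 with GENCODE M39, which held 98.9% of the gene IDs. Members and lists were chosen with earlier results of these data known. Named beside the 10 members were, from each list, the 2 genes called higher and the 2 called lower with the lowest p, taken separately for 1, 4 and 10 Hz against control, and the genes most correlated with the members and with Ryr1. The test was tested on simulated data. Some genes and sequences that these rules select are not reported here.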

Additional observations from a re-analysis of the deposited data

Results flagged for a closer look

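Of 64 groups of 6 values checked, 7 held 1 library whose gap to its neighbour, over the range of the group, exceeded Dixon's critical value for 6 samples. Chance gives about 1 in 20. In CPM these were Ryr1 in 1 Hz replicate 1 at 243 (next 160), Cacng1 in 4 Hz replicate 4 at 246 (next 205), Stac3 in 10 Hz replicate 3 at 16.8 (next 12.2), Jph2 in 1 Hz replicate 3 at 250 (next 286) and Trdn in control replicate 6 at 121 (next 98). In TPM ratios they were Ryr3 to Ryr1 in control replicate 1 at 0.38 (next 0.177) and Cacnb1 to Cacna1s in 4 Hz replicate 2 at 1.33 (next 1.12). They fell in 7 different libraries. Without 10 Hz replicate 3 the Stac3 difference of 10 Hz from 4 Hz was 0.19 with an edgeR adjusted p of 0.128.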

How the results depend on the processing

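The Stac3 difference of 10 Hz from 1 Hz and the 0 calls at 10 Hz against the control and at 4 Hz against 1 Hz were the same in every alternative run, and the Cacna1s difference of 10 Hz from 4 Hz in all but the limma fits on TPM. Replicate numbers did not pair the libraries: over 36 pairs the correlation of deviations was -0.33 to 0.24, 3 were over 0.1, and 0 of 24 libraries were closest to their own number. With the replicate block the calls were 0, 0, 0, 0, 1 and 3 in the order of the plotted comparisons, against 0, 0, 0, 0, 2 and 4, and the Cacnb1 to Cacna1s ratio at 4 Hz kept its difference of -0.43 with an exact sign-flip adjusted p of 0.112, where the smallest sign-flip p is 0.03125 and 12 of 18 tests would have to share it to pass.

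Counts of called members moved as follows, and the cause was not tested. At 1 Hz against control they were 2 on log2(TPM + 1), 1 on log2(TPM + 0.1), and 0 to 1 with 1 library left out. At 4 Hz against control they were 1 with upper-quartile factors, 2 with only the compared groups in the fit, and 0 to 2 with 1 library left out. At 10 Hz against 1 Hz the count was 1 with no filter, with 2 groups in the fit, with the replicate block, on both TPM scales and without the 4 least correlated libraries (an alternative chosen after seeing the data), and 1 to 2 with 1 library left out. At 10 Hz against 4 Hz it was 1 with no filter and on both TPM scales, and 2 to 5 with 1 library left out, with 2 without 4 Hz replicates 1 or 3 or 10 Hz replicates 1 or 6. Of the other 24 triad and T-tubule genes, calls went from 6 to 3 at 1 Hz and 13 to 4 at 4 Hz with no filter, from 13 to 5 at 4 Hz and 14 to 7 at 10 Hz against 4 Hz on TPM, from 13 to 8 at 4 Hz without the 4 libraries, and from 8 to between 2 and 5 at 10 Hz against 1 Hz with no filter, 2 groups, the block, TPM or without the 4 libraries. At 10 Hz against control they went from 0 to 2 with 2 groups and to 1 without the 4 libraries. Paralog calls at 4 Hz went from 3 to 1 with no filter and on TPM, at 1 Hz from 0 to 1 on TPM and without the 4 libraries, for 10 Hz against 4 Hz from 2 to 1 with a strict filter and without the 4 libraries, and for 10 Hz against 1 Hz from 1 to 2 under DESeq2, its size factors or a strict filter and to 0 with no filter, 2 groups, the block, TPM or without the 4 libraries.

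Log2 fold changes that turned sign on log2(TPM + 1) and log2(TPM + 0.1), where the median of all genes also shifted, were at 1 Hz against control Ryr1 -0.10 and -0.11, Ryr3 -0.19 and -0.27, Cacna1s 0.0022 and 0.0022, Cacng1 -0.22 and -0.22, Jph1 -0.14 and -0.15, Trdn -0.073 and -0.074, Bin1 -0.21 and -0.21, and Asph -0.029 and -0.029. At 4 Hz against control they were Ryr3 -0.036 and -0.073, Cacnb1 -0.27 and -0.27, Cacng1 -0.13 and -0.13, Jph1 -0.21 and -0.22, Jph2 -0.25 and -0.25, Trdn -0.16 and -0.16, Bin1 -0.18 and -0.19, Casq2 -0.038 and -0.038, and Cacnb3 -0.11 and -0.11. At 10 Hz against control Ryr3 was 0.21 and 0.30, and at 4 Hz against 1 Hz Jph1 was -0.069 and -0.072 and Jph2 -0.033 and -0.033. For 10 Hz against 1 Hz they were Ryr1 0.040 and 0.047, Ryr3 0.39 and 0.57, Cacna1s -0.0025 and -0.0026, Cacng1 0.16 and 0.16, Jph1 0.020 and 0.022, Jph2 0.18 and 0.19, and Bin1 0.17 and 0.17. For 10 Hz against 4 Hz they were Ryr3 0.24 and 0.37, Cacnb1 0.23 and 0.23, Cacng1 0.065 and 0.065, Jph1 0.088 and 0.094, Jph2 0.22 and 0.22, and Bin1 0.15 and 0.15.

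Other sign changes were of small values. With 2 groups in the fit Jph2 was 0.0036 at 1 Hz and Cacnb1 -0.0045 at 4 Hz. Cacnb1 at 4 Hz was -0.0039 under DESeq2 and -0.0038 under its size factors. With upper-quartile factors Jph2 was 0.019 at 1 Hz and Cacna1s -0.019 at 10 Hz against 1 Hz. With no filter Ryr3 was -0.0021, Cacng1 -0.017 and Bin1 -0.011 at 1 Hz, Cacnb1 -0.022 at 4 Hz and Jph2 0.014 at 10 Hz against 1 Hz. Without the 4 least correlated libraries Cacng1 was -0.18, Trdn -0.085 and Bin1 -0.048 at 1 Hz, Cacnb1 -0.031 at 4 Hz, Trdn 0.20 at 4 Hz against 1 Hz, and Cacna1s -0.030, Cacng1 0.13, Jph2 0.0012 and Bin1 0.032 at 10 Hz against 1 Hz.

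With 1 library left out, ranges that crossed 0 were at 1 Hz against control Ryr1 -0.037 to 0.19, Ryr3 -0.065 to 0.12, Cacng1 -0.13 to 0.076, Jph2 -0.037 to 0.023 and Bin1 -0.056 to 0.049. At 4 Hz they were Ryr3 -0.016 to 0.18 and Cacnb1 -0.041 to 0.063, and at 10 Hz Ryr1 -0.080 to 0.017, Cacnb1 -0.060 to 4.2e-05, Cacng1 -0.085 to 0.0021, Jph2 -0.031 to 0.0097 and Bin1 -0.044 to 0.0077. At 4 Hz against 1 Hz they were Ryr3 -0.047 to 0.11 and Trdn -0.13 to 0.11. Between 10 Hz and 1 Hz they were Cacna1s -0.045 to 0.058, Cacng1 -0.12 to 0.077, Jph2 -0.035 to 0.019 and Bin1 -0.056 to 0.038, and at 10 Hz against 4 Hz Cacnb1 -0.090 to 0.0051.

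Ratios, as log2 differences from the control, turned sign on estimated counts for Ryr3 to Ryr1 at 10 Hz (-0.14), Cacna1s to Ryr1 at 1, 4 and 10 Hz (-0.24, -0.15 and -0.089), Cacnb1 to Cacna1s at 10 Hz (0.098) and Cacng1 to Cacna1s at 1, 4 and 10 Hz (0.13, 0.014 and 0.080). Without the 4 least correlated libraries Cacna1s to Ryr1 was -0.17 at 1 Hz, and Cacnb1 to Cacna1s at 4 Hz was -0.41 with an adjusted p of 0.0857 in the exact permutation test (smallest unadjusted p 0.00952 with 6 against 4), beside -0.17 on counts. With 1 library left out Ryr3 to Ryr1 ran from -0.31 to 0.10 at 1 Hz and -0.24 to 0.17 at 4 Hz, Jph2 to Jph1 from -0.10 to 0.032 at 4 Hz, Cacna1s to Ryr1 from -0.00061 to 0.30 at 1 Hz and -0.024 to 0.14 at 10 Hz, and Cacnb1 to Cacna1s from -0.48 to -0.39 at 4 Hz and -0.11 to 0.073 at 10 Hz. Cacng1 to Cacna1s at 4 Hz ran from -0.32 to -0.25, Stac3 to Cacna1s from -0.60 to -0.39 at 1 Hz and -0.56 to -0.41 at 4 Hz, and these 3 passed without control replicate 6 (exact permutation test, adjusted p = 0.0195 each). Cacng1 to Cacna1s also passed without control replicate 5 and Stac3 to Cacna1s at 1 Hz without 1 Hz replicate 3 (exact permutation test, adjusted p = 0.039 each).

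Ryr3 and Stac3 had the lowest counts, about 7 and 11 CPM in the control, while the largest standard errors were those of Trdn (0.17 to 0.18) and Ryr3 (0.17).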
